A study of Mus musculus with 2 samples.

Results

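The genes described here code for proteins linked to heme or its synthesis, in part at the mitochondrion. Their proteins are the carriers Slc25a38 and Slc25a39, the ATP-binding cassette transporters Abcb10 and Abcb6 and the membrane protein Tmem14c. The others are the heme-binding protein Hebp1 and the heme exporter Flvcr1. The genes are 7 of the 27998 genes listed in a single-cell RNA and surface protein (CITE-seq) experiment, and they were found by symbol. Of these, 6 were matched by symbol, and Flvcr1 is listed under its older symbol Mfsd7b. All 7 had UMIs in the cells kept.

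The cells came from the livers of C57BL/6 mouse embryos at e13.5, pooled from 7 livers, with no genetic change and no drug treatment. Ter119+ cells were partly depleted, and an equal number of Ter119+ cells was added back, so that the shares of cells per stage follow the preparation and not the liver. One suspension was stained with antibodies that carry DNA tags, and it gave 1 cDNA library and 1 antibody library of the same 7863 cell barcodes. There is therefore 1 sample, and no test between conditions was made: each interval below is an exact 95% interval that covers counting error only, and a gene was counted as higher or lower when its ratio passed 2-fold.

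In erythroid cells heme is made in a route that starts and ends in the mitochondrial matrix and passes through the cytosol in between. Glycine has to enter the matrix for the first step, a porphyrin intermediate has to return to the matrix for the last steps, and the finished heme has to leave for the globins. The fetal liver is the main site of red cell formation in the mid-gestation embryo, where cells gain CD71 (the transferrin receptor, which brings in iron), then gain Ter119, and finally lose CD71.

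The stages were read from the tag counts of these antibodies. Both tags are shown because every stage below rests on the number of times they were counted per cell.
Ter119 (ADT2): GAGGCGATTGAT
CD71 (ADT9): CGAAGAAGGAGT
Among cells low in lineage antibodies, those with Ter119 counts below 24.5 were split by CD71 into S0-low (below 233.5 counts), S0-medium and S1 (above 765 counts). S2 cells had intermediate Ter119 and CD71 above 765 counts, S3 cells had Ter119 above 88.5 counts with CD71 above 746 counts, and S4/S5 cells had high Ter119 with lower CD71. These stages held 1510, 1054, 612, 1297, 838 and 898 cells, in that order. Tfrc, the gene of CD71, was at 90.1 UMIs per 1000000 UMIs (CPM) in S0-low and was highest in S2, at 318 CPM.

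Several properties of the stages bear on every value. The median depth from S0-low to S4/S5 was 6146, 10282, 10151.5, 6021, 4534.5 and 3949 UMIs per cell. UMIs per cell move with this depth: the median per-cell ratio of all genes tested was 1.30 for S0-medium over S0-low. It was 0.551 for S2 over S1 and 0.474 for S3 over S2. Globin transcripts took 1.05%, 1.39%, 2.80%, 13.1%, 37.6% and 64.0% of the UMIs from S0-low to S4/S5. A gene's CPM can therefore be lower in a late stage while its level per 1000000 UMIs of non-globin genes (non-globin CPM) is not, and both scales are given where they differ. S0-low was also mixed: 8.21% of its cells fell in clusters of hepatocyte-like, macrophage-like, megakaryocyte-like or myeloid-like cells, 20.5% in an unnamed cluster led by Ifitm1, Hmga2 and Cd34, and 5.10% in clusters led by Lsp1, Ccr2 and Lyz2 or by Mest, Sparc and Dcn. Its hepatocyte marker Alb stood at 1925 CPM, against 101 CPM in S0-medium.

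The genes lie on 6 chromosomes of the mouse genome build GRCm38 (mm10). Slc25a38 lies at chr9:120110377-120126093 on the plus strand, Slc25a39 at chr11:102402969-102408675 on the minus strand, Abcb10 at chr8:123952459-123983122 (minus), Abcb6 at chr1:75171640-75180392 (minus), Tmem14c at chr13:41016250-41022582 (plus), Hebp1 at chr6:135137519-135168215 (minus) and Flvcr1 at chr1:191005832-191026190 (minus). All are protein-coding. In RefSeq a long noncoding RNA, A230020J21Rik, overlaps Flvcr1, and it had 7 UMIs in the kept cells against 667 for Flvcr1.

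Promoters were searched because most of these genes had their highest levels in neighbouring stages. In the 250 bases before a RefSeq start site, the letters CCNCNCCC, which can match a CACCC box, were searched on both strands. They occurred in 6 of the 7 genes, all but Abcb10, and in 48.5% of 27025 genes with a promoter of the same length. For Slc25a39 the window, chr11:102407518-102407767, lies inside the gene span given above. For Slc25a38 it runs to chr9:120110381, past the start given above. The start sites used for these genes thus differ from those of the printed spans. These letters also take in the GC box CCGCCC, which the matches shown for Slc25a39, Abcb6, Tmem14c and Flvcr1 hold on one of the strands. None of the matches shown holds the letters CACCC on either strand, but matches farther from the start in the same windows do. They are CCGCACCC of Hebp1 (79 bases before the start) and, on the other strand, GGGGGTGG of Slc25a39 (99 bases). Abcb6 has GGGGGTGG (194 bases) and GGGTGGGG (185 bases), also on the other strand. The match nearest to the start follows for each gene with its surroundings, 5′ to 3′ on the gene's strand, with the matched letters in capitals.
Slc25a38, chr9:120110362-120110381: ttctgctttccCCTCCCCCg
Slc25a39, chr11:102407518-102407540: cttcgccttctGGGGGCGGagcc
Abcb6, chr1:75180401-75180430: atagatctggtGGGCGGGGccgctgccgta
Tmem14c, chr13:41016173-41016202: ccggaaccaagCCCCGCCCcatcacccgaa
Hebp1, chr6:135168222-135168251: cgctgcccaggCCACGCCCggtgtcgccca
Flvcr1, chr1:191026219-191026248: agatgccctggGGGCGGGGactgccggcaa
No GATA motif (AGATAA and AGATAG, and with TGATAA and TGATAG, both strands) was present in these windows for any of the 7 genes, against 29.7% of genes at large, and no NFE2 motif (GCTGANTCA) was present, against 1.17%. A match of letters describes the sequence and shows no binding, and a missing match says only that these letters are not in these 250 bases.

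Of the mitochondrial carriers, Slc25a38 brings glycine into mitochondria for the first step of heme synthesis. Slc25a38 began at 62.5 CPM in S0-low and 129 CPM in S0-medium, stood at 159.8 CPM in S1 and 159 CPM in S2, and ended at 115 CPM in S3 and 37.9 CPM in S4/S5. The highest levels in CPM, in S1 and S2, did not differ beyond their counting error, with a ratio of S2 over S1 of 0.997 (0.919 to 1.08). That ratio was 1.12 (1.03 to 1.21) among non-globin UMIs and 0.698 (0.644 to 0.757) per cell. Per cell the median of all genes tested was 0.551. S0-medium was 2.07 times S0-low (1.89 to 2.27). Among non-globin UMIs the level in S3 equalled that in S2, with a ratio of 1.01 (0.909 to 1.11), whereas in CPM it was 0.723 (0.653 to 0.799). In non-globin CPM Slc25a38 was at 164 in S1, 183 in S2 and 185 in S3, and in S4/S5 it was lower than in S3 on both scales, at 0.329 times (CPM) and 0.570 times (non-globin).

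Slc25a39, which is known for the import of glutathione into mitochondria, followed another course. From S0-low through S0-medium to S1 it was at 45.4, 37.7 and 45.6 CPM, and from S2 through S3 to S4/S5 at 76.2, 149 and 157 CPM. The first stages lay within a narrow range, and S3 was 1.96 times S2 (1.76 to 2.18), a ratio higher than that of 97.8% of the 7602 genes tested in this step. In non-globin CPM the ratio was 2.73 (2.46 to 3.04). This rank is the same in CPM, among non-globin UMIs and per cell, because these scales multiply the ratios of all genes alike. In UMIs per cell, Slc25a39 counted 0.349, 0.389, 0.466, 0.544, 0.804 and 0.673 from S0-low to S4/S5. It was the only member with more UMIs per cell in S3 than in S2, with a ratio of 1.48 (1.33 to 1.64). S4/S5 did not differ from S3 in CPM beyond counting error (1.05, 0.937 to 1.17), while it was 1.82 times S3 among non-globin UMIs (1.62 to 2.03) and 0.836 times S3 per cell (0.748 to 0.935).

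**Figure D1:**
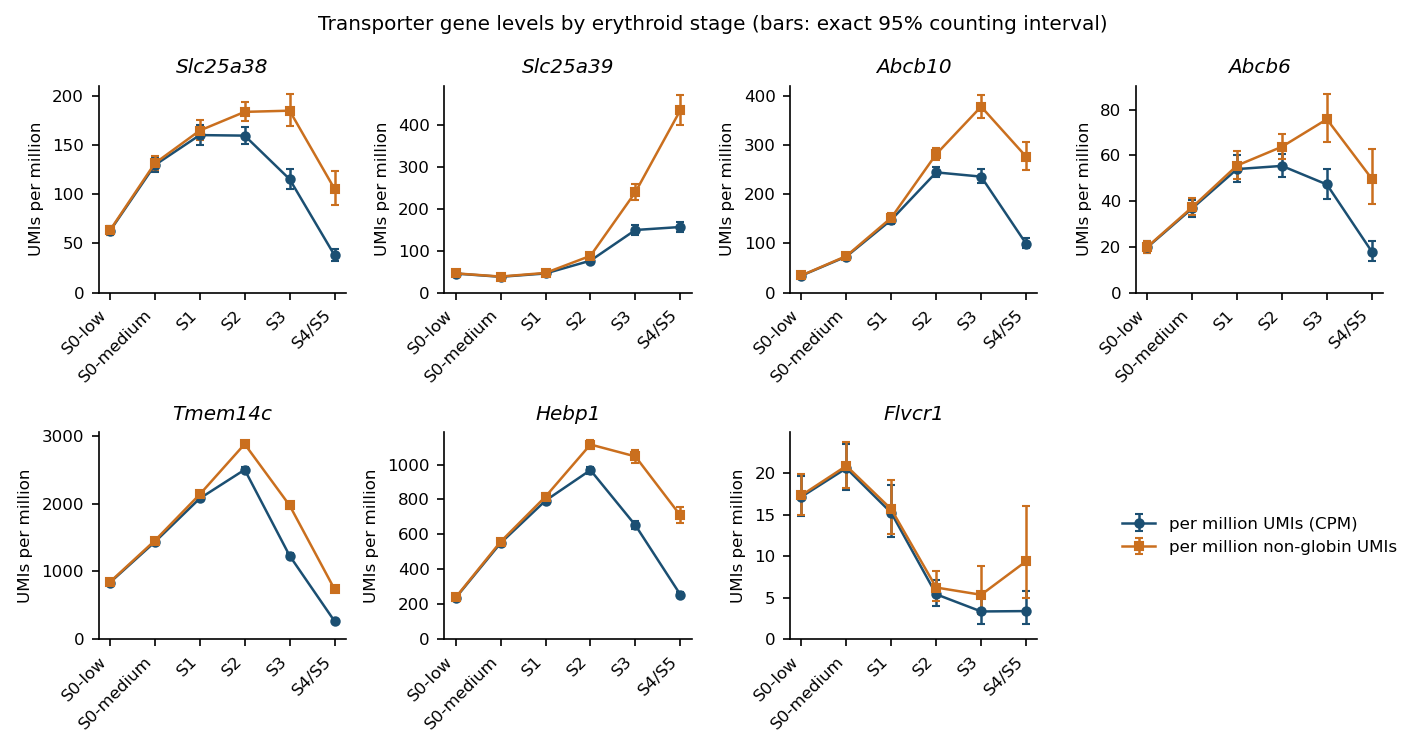
Level of each gene (vertical axis, CPM) by erythroid stage (horizontal axis) over all UMIs (circles) and over non-globin UMIs (squares), with exact 95% counting intervals as bars. The highest point is in S4/S5 for Slc25a39, in S0-medium for Flvcr1, and in S1, S2 or S3 for the other genes. In CPM, Slc25a39 in S4/S5 did not differ from S3 beyond counting error, nor did Flvcr1 in S0-medium from S0-low.

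Abcb10 is an ATP-binding cassette transporter of the inner mitochondrial membrane that erythroid cells need for heme synthesis. Abcb10 was lowest in S0-low, at 34.5 CPM, and highest in S2 and S3, at 245 and 236 CPM, with 73.3 CPM in S0-medium, 148 CPM in S1 and 99.6 CPM in S4/S5. Each stage up to S2 exceeded the one before it, by 2.13 times (1.88 to 2.41), 2.02 times (1.83 to 2.22) and 1.65 times (1.53 to 1.79). S3 did not differ from S2 in CPM (0.965, 0.896 to 1.04), but it was 1.34 times S2 among non-globin UMIs (1.25 to 1.45) and 0.726 times S2 per cell (0.675 to 0.782). From S0-low to S3 its ratio was 6.85 (6.10 to 7.70), higher than that of 98.5% of the 9407 genes tested and the highest of the 7 members.

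Abcb6, which carries porphyrins and has been placed at the outer mitochondrial membrane and at other membranes, was measured at lower counts. It was at 19.7 CPM in S0-low and 36.8 CPM in S0-medium, at 54.0, 55.4 and 47.2 CPM from S1 to S3, and at 17.9 CPM in S4/S5. S2 was not separable in CPM from S1 or from S3, with ratios of 1.03 (0.892 to 1.18) for S2 over S1 and 0.853 (0.724 to 1.003) for S3 over S2. Among non-globin UMIs S3 was 1.19 times S2 (1.01 to 1.40). Per cell, S2 was 0.718 times S1 (0.625 to 0.827) and S3 was 0.643 times S2 (0.545 to 0.755). The median per-cell ratios of all genes tested were 0.551 and 0.474 in these steps. S4/S5 returned to the range of S0-low in CPM, where the intervals of 13.9 to 22.6 and 17.3 to 22.5 overlapped, but it was above S0-low among non-globin UMIs, at 49.7 against 19.9.

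Tmem14c, an inner-membrane protein needed to bring protoporphyrinogen to the matrix for the last steps of heme synthesis, had the most UMIs of the 7 genes, 74692 in the kept cells. It was highest in S2, at 2502 CPM, whereas per cell it was highest in S1, with 21.2 UMIs against 17.9 in S2 (0.843, 0.825 to 0.862). For S2 over S1, the median per-cell ratio of all genes tested was 0.551, and 89.2% of genes had a lower ratio than Tmem14c. The stages before S2 were at 834 (S0-low), 1434 (S0-medium) and 2077 CPM (S1), and those after it at 1231 (S3) and 265 CPM (S4/S5). S3 was 0.492 times S2 (0.478 to 0.507) in CPM and 0.686 times S2 (0.666 to 0.706) among non-globin UMIs. S4/S5 was 0.215 times S3 (0.201 to 0.230) in CPM and 0.373 times S3 (0.349 to 0.399) among non-globin UMIs, and only 1.10% of the 5556 genes tested had a lower ratio in this step. After each cell was thinned to 2000 UMIs, Tmem14c was detected in 73.2% of S0-low cells, 96.9% of S1 cells, 93.2% of S2 cells and 31.5% of S4/S5 cells, against 93.3%, 99.3%, 96.1% and 53.9% without thinning. The 2000 UMIs include globin UMIs, which took 2.80% in S1 and 64.0% in S4/S5. Thinned S4/S5 cells thus kept fewer non-globin UMIs.

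Hebp1 codes for a heme-binding protein of the cytosol. Its highest level was 969 CPM in S2, next to 794 CPM in S1 and 653 CPM in S3, with 236 CPM in S0-low, 550.1 CPM in S0-medium and 255 CPM in S4/S5. Per cell it was highest in S1, with 8.10 UMIs against 6.92 in S2 (0.855, 0.825 to 0.885). For S2 over S1, the median per-cell ratio of all genes tested was 0.551, and 89.9% of genes had a lower ratio than Hebp1. S0-medium was 2.33 times S0-low (2.23 to 2.44), a higher ratio than that of 99.2% of the 9834 genes tested. With other antibody gates this ratio was 4.15 to 4.83. It was 1.88 with the non-erythroid clusters and the clusters led by Cd34, Ccr2 or Dcn left out. After S2 its level was 0.674 times in S3 (0.646 to 0.703) in CPM and 0.939 times (0.900 to 0.979) among non-globin UMIs. Its course therefore resembled that of Tmem14c up to S2 and was flatter beyond it on the scale without globins.

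Flvcr1 codes for a heme exporter with a plasma membrane and a mitochondrial isoform, which counts per gene do not separate. It had the fewest UMIs of the 7 genes, 667 in the kept cells. In the stages of low Ter119 it was at 17.1 (S0-low), 20.6 (S0-medium) and 15.2 CPM (S1), and in those of higher Ter119 at 5.40 (S2), 3.33 (S3) and 3.37 CPM (S4/S5). S2 was 0.355 times S1 (0.247 to 0.505), and only 1.36% of the 8217 genes tested had a lower ratio in this step. The S3 and S4/S5 levels rest on 15 and 13 UMIs, so no difference between these late stages could be seen (1.01, 0.444 to 2.28). In cells thinned to 2000 UMIs Flvcr1 was found in 3.64% of S0-low cells and in 0.771% of S2 cells, against 11.4% and 3.47% without thinning. Flvcr1 was the only member whose level in S3 was below that in S0-low, at 0.194 times (0.107 to 0.328) in CPM and 0.308 times (0.169 to 0.520) among non-globin UMIs.

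The steps were then compared with the genes at large, over genes with at least 50 UMIs in both stages together. From S0-low to S0-medium, 3 of the 7 genes were at least 2-fold higher (Slc25a38, Abcb10 and Hebp1), against 1.55% of genes, and 0 were at least 2-fold lower, against 13.1%. The count of higher genes was 0, against 0.939% of genes, with the non-erythroid clusters, the Cd34 cluster and the clusters led by Ccr2 or Dcn left out. This choice was made after seeing the data. The ratios were then 1.57 for Slc25a38, 1.79 for Abcb10 and 1.88 for Hebp1. The cause of this change was not tested. From S0-medium to S1, 1 gene, Abcb10, was at least 2-fold higher, against 0.693% of genes; its ratio of 2.02 lies at the limit.

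From S1 to S2 and from S2 to S3 no member was at least 2-fold higher in CPM, against 2.03% and 2.08% of genes. In non-globin CPM 1 of 7, Slc25a39, was at least 2-fold higher in S3 than in S2, against 5.0% of genes. Flvcr1 was at least 2-fold lower in S2 than in S1, against 8.31% of genes, and Tmem14c in S3 than in S2, against 20.2%. The latter ratio of 0.492 lies at the limit. From S3 to S4/S5, 5 of the 6 genes with enough UMIs were at least 2-fold lower in CPM, against 48.9% of genes. Among non-globin UMIs 1 of 6, Tmem14c, was at least 2-fold lower, against 5.13% of genes, so 4 of these 5 calls were not made on that scale.

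Over the whole span from S0-low to S3, 4 of the 7 genes were at least 2-fold higher in CPM (Abcb10, Slc25a39, Hebp1 and Abcb6), against 5.74% of genes, and 1, Flvcr1, was at least 2-fold lower, against 64.2%. The median ratio of the 7 genes was 2.39 and that of all genes tested was 0.379. Among non-globin UMIs 6 of 7 were at least 2-fold higher, against 10.1% of genes, and per cell 2 of 7 were (Abcb10 and Slc25a39), against 3.93%. Slc25a38 and Tmem14c were below 2-fold in CPM, at 1.84 (1.64 to 2.07) and 1.48 (1.43 to 1.52). These ratios depended on how the antibody counts were gated: with a Gaussian mixture, scaling within each cell or log10 counts, Slc25a38 was at 4.21, 4.26 and 4.75, Tmem14c at 2.22, 1.74 and 2.82, Hebp1 at 8.41, 7.81 and 9.56, Abcb6 at 4.32, 4.22 and 5.07, and Abcb10 at 11.4, 11.7 and 12.1, while Slc25a39 stayed between 2.75 and 3.41.

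**Figure D2:**
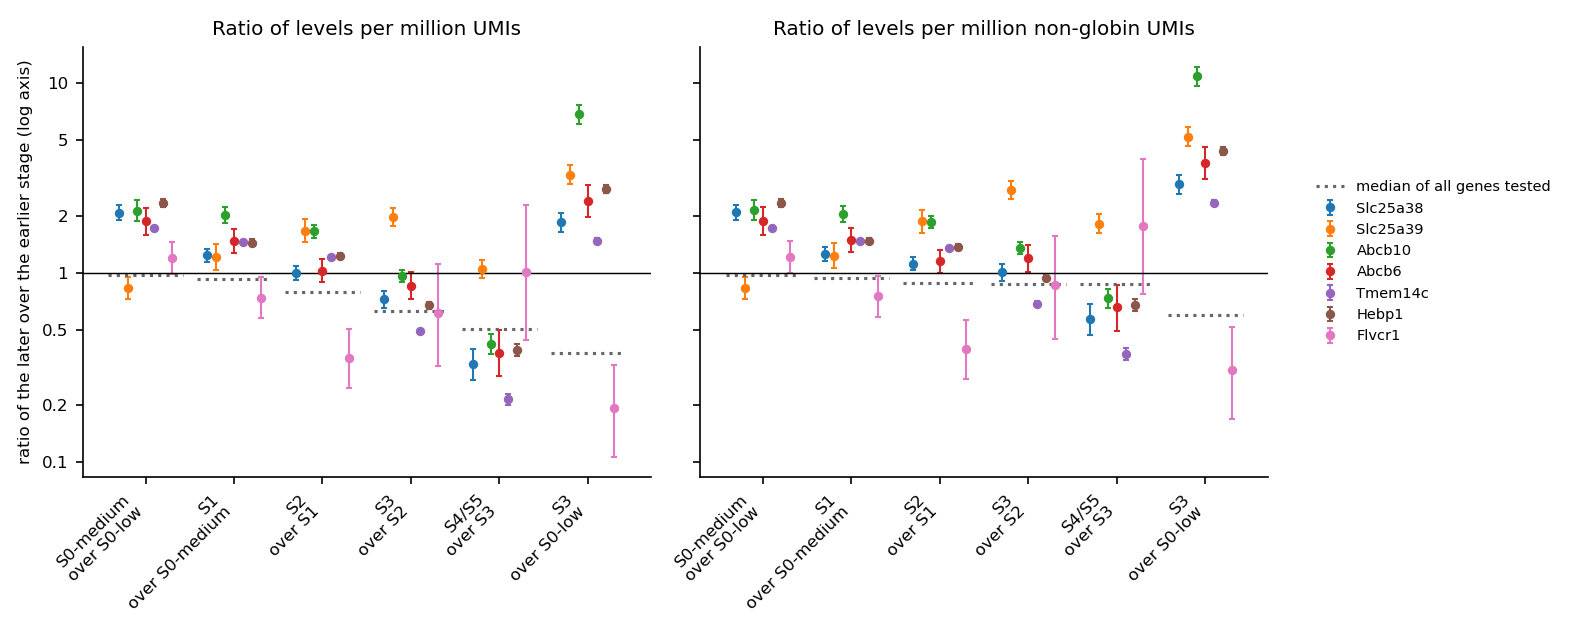
Ratio of the later over the earlier stage (vertical log axis) for each gene and step, in CPM on the left and in non-globin CPM on the right, with exact 95% counting intervals as bars and the median of all genes tested as dotted lines. In the step from S3 to S4/S5, 5 of the genes lie below 0.5 on the left, and Tmem14c alone lies there on the right.

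The antibody counts also order cells without stage borders. Lineage-low cells with low Ter119, without those of the 4 non-erythroid types, were divided by CD71 into 10 groups of 304 or 305 cells. From the lowest to the highest CD71 group, Hebp1 went from 52.7 to 851 CPM, Slc25a38 from 13.8 to 173, Abcb10 from 16.5 to 176, Abcb6 from 7.25 to 59.4 and Tmem14c from 488 to 2269. Hebp1 had its largest step between the second group, at 78.1 CPM, and the third, at 262 CPM. Slc25a38 was already at 116 CPM in the fifth group, while Abcb10 stood at 54.7 CPM there. Slc25a39 showed no such gradient, with 53.4 CPM in the lowest group, 34.4 in the second, 35.1 in the sixth and 47.7 in the highest. The lowest groups hold many cells of the Cd34 cluster, in which Slc25a38 was at 17.0 CPM, Abcb10 at 17.3, Abcb6 at 6.99 and Hebp1 at 45.3.

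Cells of intermediate and high Ter119, again without the non-erythroid types, were divided by Ter119 into 10 groups of 324 or 325 cells. Slc25a39 went from 51.1 CPM in the lowest group to 135 in the fifth and 150.3 in the tenth. Abcb10 was highest in CPM in the third group, at 275 CPM, and Tmem14c in the first and second groups, at 2603 and 2652 CPM, with 447 CPM in the tenth. Among non-globin UMIs Abcb10 was at 326 in the third group, 368 in the sixth and 340 non-globin CPM in the tenth. Tmem14c was also lower in the tenth group among non-globin UMIs, at 1148 against 2785 non-globin CPM in the first.

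In cells of high Ter119, with the same types left out and divided by falling CD71 into 5 groups of 346 or 347 cells, Slc25a38 went from 131 to 16.2 CPM, Abcb10 from 279 to 59.8 and Tmem14c from 1612 to 202. In non-globin CPM the falls were smaller, from 191 to 55.6 for Slc25a38, from 406 to 206 for Abcb10 and from 2346 to 697 for Tmem14c. Slc25a39 stayed between 129.7 and 181 CPM there, and among non-globin UMIs it went from 189 to 549 non-globin CPM. In the group with the least CD71, Slc25a39 was thus at a higher CPM than Abcb10, whereas in the group with the most CD71 it was at a lower one; transcript lengths were not accounted for in this order.

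**Figure D3:**
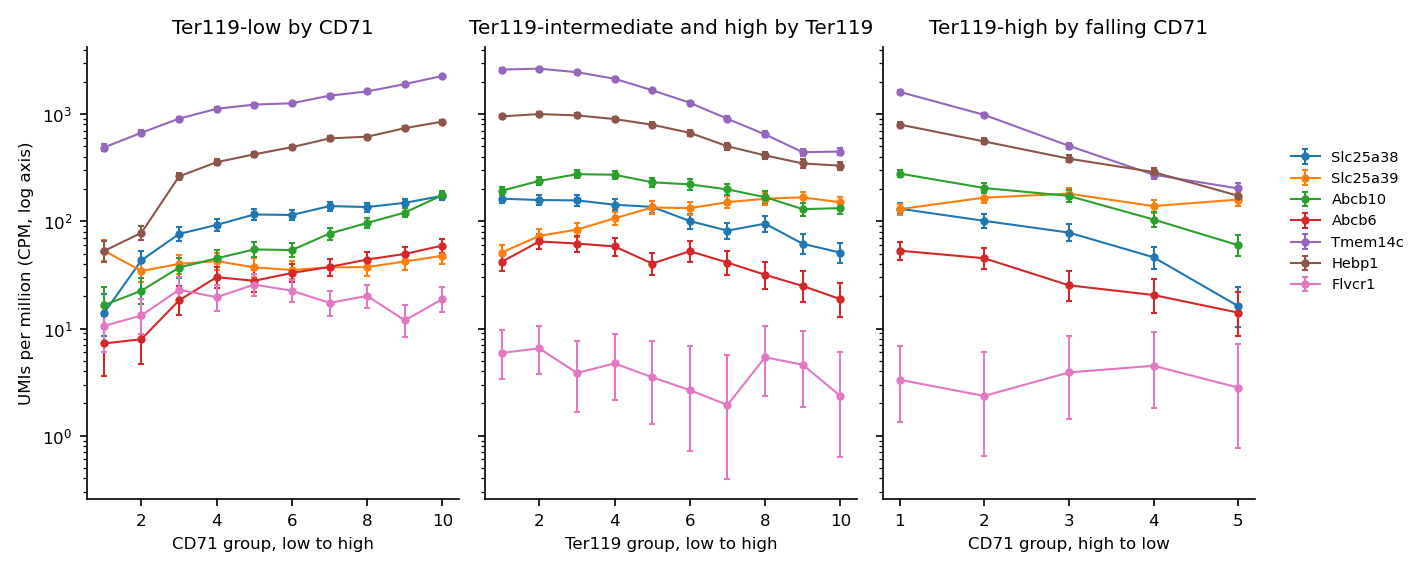
Level of each gene (vertical log axis, CPM) in groups of cells ordered by CD71 among Ter119-low cells (left), by Ter119 among cells of intermediate and high Ter119 (middle) and by falling CD71 among Ter119-high cells (right), with exact 95% counting intervals as bars. Slc25a39 stays between 34.4 and 53.4 CPM on the left and goes from 51.1 to 150.3 CPM in the middle. It stays between 129.7 and 181 CPM on the right, where Slc25a38, Abcb10 and Tmem14c decline.

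Outside the erythroid lineage, 189 hepatocyte-like, 81 macrophage-like, 96 megakaryocyte-like and 112 myeloid-like cells were named from their markers. Albumin in hepatocyte-like cells (18181 CPM), C1qa in macrophage-like cells (1783 CPM), Pf4 in megakaryocyte-like cells (19881 CPM) and S100a8 in myeloid-like cells (10444 CPM) were each far above their level in S2. Free RNA from lysed erythroid cells can add UMIs to such cells. Its possible part was estimated by taking every adult β-globin UMI of a cell type as free RNA of the composition of the whole sample. Free RNA was not measured directly, for want of empty droplets. In S1, for example, Tmem14c had 12972 UMIs, against 2043 that free RNA of that composition would give there. Free RNA of another composition could thus supply more, and the possible part is no upper limit. In S0-low, whose cells may also make globin, this part ran from 6.08% for Flvcr1 to 28.5% for Abcb10.

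Tmem14c was at 1452 CPM in megakaryocyte-like cells (1374 to 1534), a level like that of S0-medium. Free RNA of the composition of the whole sample could account for 6.88% of it. In the other types Tmem14c was at 427 (hepatocyte-like), 616 (macrophage-like) and 489 CPM (myeloid-like), with 37.3%, 40.6% and 51.4% possible by the same estimate. Thinned to 2000 UMIs, 93.8% of megakaryocyte-like cells had a Tmem14c UMI, against 56.1% of hepatocyte-like cells, with 100% and 95.2% without thinning at median depths of 8260 and 13001 UMIs.

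Slc25a39 was at 88.2 CPM in hepatocyte-like cells (76.4 to 101), above its level in S0-low, S0-medium and S1. Free RNA of the composition of the whole sample could account for 8.92% of it. It was at 41.5 CPM in macrophage-like, 25.9 in megakaryocyte-like and 38.3 in myeloid-like cells. Hebp1 was at 242 CPM in hepatocyte-like and 312 CPM in macrophage-like cells (267 to 362), and at 55.2 and 75.3 CPM in megakaryocyte-like and myeloid-like cells. For Hebp1 the possible part of free RNA was 25.1% and 30.6% in the first pair of types, and 69.0% and 127% in the second pair, so its level in myeloid-like cells cannot be told apart from free RNA. Macrophage-like cells also carried a median of 73 Ter119 counts, against 9 in hepatocyte-like cells, and the part of attached or engulfed erythroid cells in these values was not tested.

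Slc25a38 was between 14.4 and 30.4 CPM and Abcb10 between 21.6 and 35.0 CPM in the 4 types, below every erythroid stage from S0-medium to S3. The possible part of free RNA ran from 24.7% to 131% for Slc25a38 and from 33.9% to 97.4% for Abcb10. Abcb6 was at 29.7 CPM in hepatocyte-like and 30.4 CPM in megakaryocyte-like cells, with 14.0% and 8.58% possible from free RNA. In macrophage-like and myeloid-like cells it was at 9.01 and 17.3 CPM, with 72.6% and 38.0% possible from free RNA. Flvcr1 counted 11 UMIs in macrophage-like cells (19.8 CPM, 9.90 to 35.5) and 7 in hepatocyte-like cells (3.10 CPM, 1.25 to 6.39). It counted 12 UMIs in myeloid-like cells (14.8 CPM) and 8 in megakaryocyte-like cells (9.02 CPM), between these levels. The Flvcr1 intervals of macrophage-like and hepatocyte-like cells, the highest and lowest of the 4 types, do not overlap. They rest on few UMIs, and the possible part of free RNA is not given for them.

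**Figure D4:**
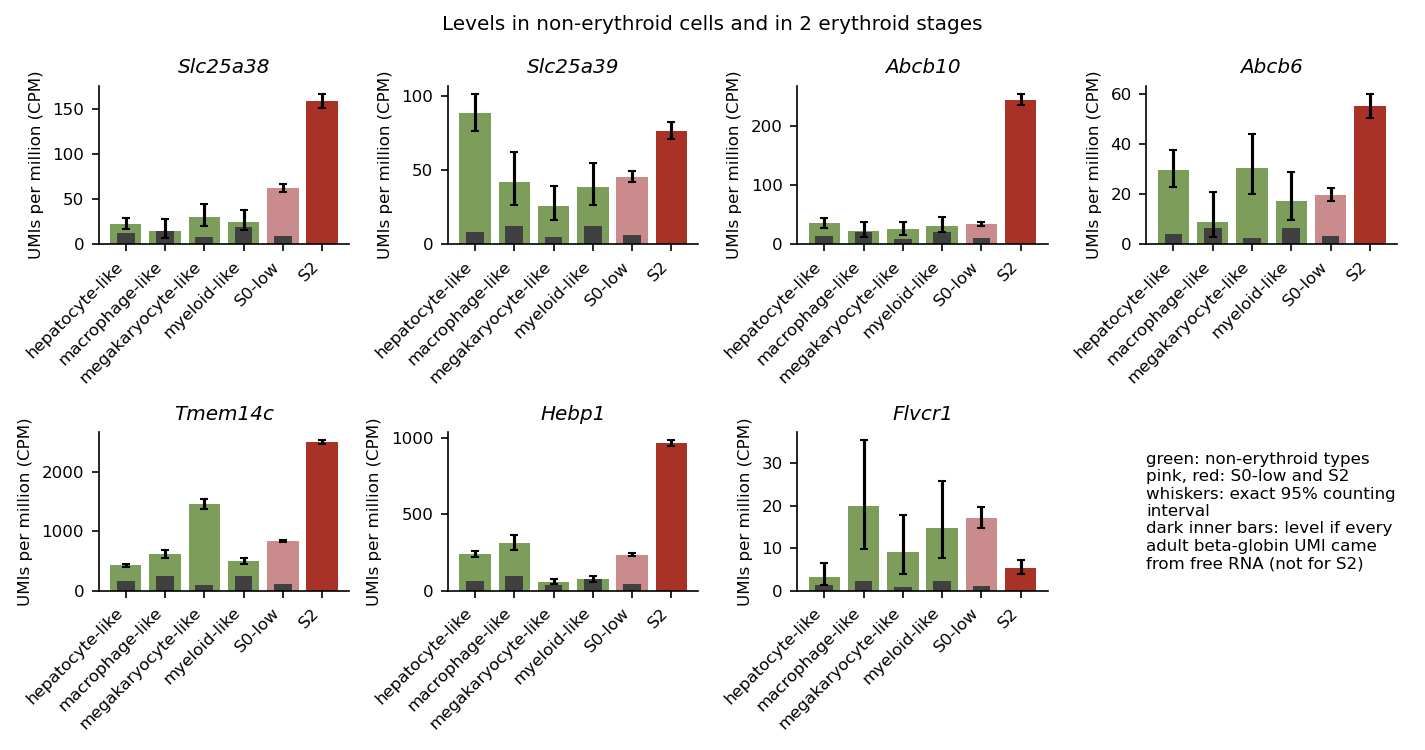
Level (vertical axis, CPM) of each gene in the non-erythroid types (green bars) and in S0-low and S2 (pink and red bars), with exact 95% counting intervals as whiskers and, as dark inner bars, the level that free RNA could give if it held every adult β-globin UMI. Tmem14c in megakaryocyte-like cells (1452 CPM) and Slc25a39 in hepatocyte-like cells (88.2 CPM) stand well above their inner bars. The inner bars take free RNA to have the composition of the whole sample and are no upper limit.

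An unnamed cluster of 75 cells was led by Hbb-y and Hba-x, genes of embryonic globins, and globins took 81.7% of its UMIs. In non-globin CPM it had 229 of Slc25a39, 186 of Abcb10, 85.9 of Slc25a38, 315 of Hebp1 and 501 of Tmem14c. These values rest on 6 UMIs for Slc25a38 and 35 for Tmem14c. Flvcr1 had 0 UMIs in this cluster, which allows a level of up to 42.9 non-globin CPM (3 counts), above its level in every stage.

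Genes of like pattern were sought over the 6 stages and the 4 non-erythroid types, by Pearson's r of log2(CPM + 10) among 8978 genes with at least 200 UMIs. These 10 populations come from 1 library and share its free RNA, and r is given as a description. Abcb10 was most like Plek2 (0.993), Bsg (0.980) and Mgst3 (0.978). Slc25a38 was most like Pabpc4 (0.987), Stx2 (0.978) and Ifrd2 (0.978), and Slc25a39 most like Cat, the gene of catalase (0.975), Map4k5 (0.971) and Ttc39a (0.958). The genes nearest to Tmem14c were 1600002H07Rik (0.978), Tcea1 (0.966) and Usp7 (0.966), and those nearest to Hebp1 were Scrn3 (0.949), 2700097O09Rik (0.947) and Aqp3 (0.943). Abcb6 was nearest to Tubb4b (0.930), Apex2 (0.928) and Eif1 (0.920), and Flvcr1 to Bcap29 (0.957), Fadd (0.955) and Dhx37 (0.954).

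Among the members themselves, Slc25a38 and Abcb6 (0.844), Slc25a38 and Abcb10 (0.833) and Abcb10 and Hebp1 (0.792) were the most alike over the 10 populations. Slc25a39 and Flvcr1 had the most opposed pattern (-0.800). The carriers Slc25a38 and Slc25a39 had an r of 0.153.

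Around these genes, the rest of the heme pathway was counted from S0-low to S3 with the same limit of 2-fold in CPM, over lists compiled by function. Over all genes tested, 5.74% were higher and 64.2% lower. Of the 9 enzymes of heme synthesis, 8 were higher and 1 lower, with a median ratio of 5.13. Alas2, the erythroid form of the enzyme of the first step, was 66.7 times higher (59.1 to 75.6), and Fech, which inserts the iron, 12.3 times. Alas1, the housekeeping form, was at 0.130 times, and Alad, the lowest of those that were higher, at 3.90 times. All members but Abcb10 thus had smaller ratios than the 8 enzymes that were higher.

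Of the 5 genes of mitochondrial iron import and iron-sulfur export, 1 was higher and 2 lower, against 5.74% and 64.2% of all genes. Slc25a37, the iron carrier mitoferrin-1, was 28.9 times higher, while its relative Slc25a28 was at 0.179 times and Abcb8 at 0.213 times. Of the 7 genes of glycine and glutathione supply, 3 were higher and 2 lower, against the same shares of all genes. The plasma membrane glycine transporter Slc6a9 was 14.6 times higher. Gclm, a subunit of the enzyme that begins glutathione synthesis, was 3.10 times higher. The glycine-forming enzymes Shmt1 and Shmt2 were at 0.0814 and 0.377 times, and the median of all genes tested was 0.379, so Shmt2 lay at the background.

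Of the 15 genes of other heme, porphyrin and bile pigment handling, 12 had enough UMIs, and 5 were higher and 5 lower, against 5.74% and 64.2% of all genes. The porphyrin exporter Abcg2 was 6.01 times higher and the biliverdin reductase Blvrb 4.99 times higher. Hpx, the gene of the plasma heme carrier hemopexin made by hepatocytes, was at 0.128 times, and Pgrmc1, a heme-binding membrane protein, at 0.186 times. The hepatocyte-like cells in S0-low were not left out of these ratios.

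Other members of the same gene families were counted in the same way. Of 31 other Slc25a carriers with enough UMIs, of 45 listed, 2 were higher (Slc25a37 and Slc25a51) and 22 lower, with a median ratio of 0.308. Of 3 other Abcb genes with enough UMIs, of 8 listed, 0 were higher and 1 lower, and Tmem14a was at 0.210 times. Of all genes tested, 5.74% were higher and 64.2% lower. The median over all genes tested was 0.379, so the Slc25a family lay near the background, and Slc25a38 and Slc25a39, at 1.84 and 3.29 times, lay above its median.

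**Figure D5:**
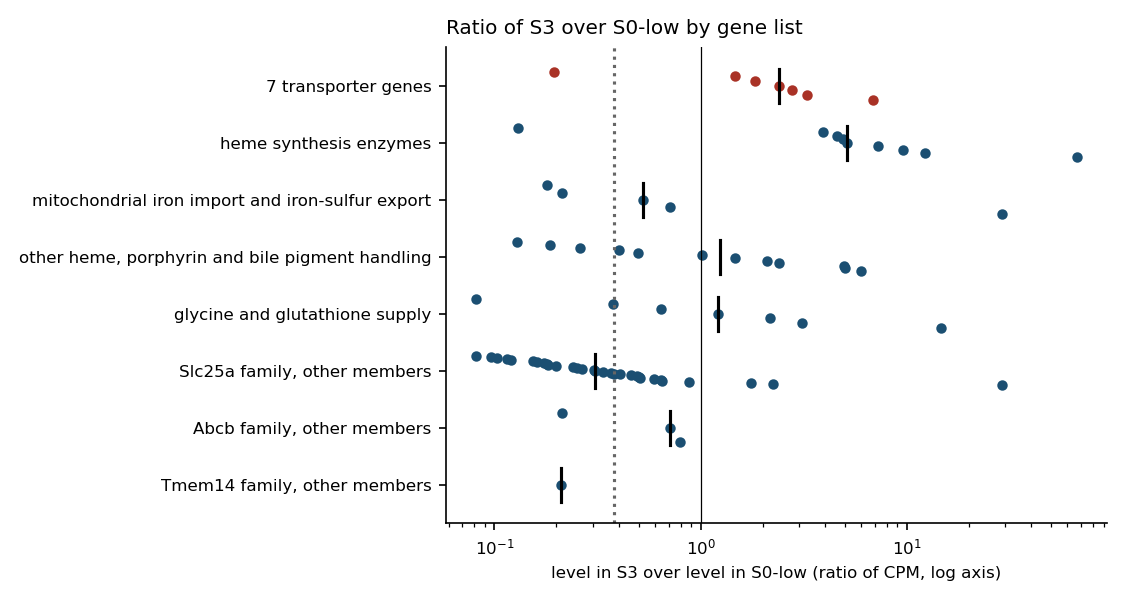
Ratio of the level in S3 over that in S0-low (horizontal log axis, CPM) for each gene (points) of each list (rows), with the median of each list as a black line and the median of all genes tested, 0.379, as a dotted line. The row of transporter genes, which includes the heme-binding protein Hebp1, has a median of 2.39. This lies between the heme synthesis enzymes, with a median of 5.13, and the other Slc25a genes, with a median of 0.308.

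The 215 lineage-low cells of intermediate Ter119 and CD71 below that of S2 were in no stage. They had 123 CPM of Slc25a39, 1499 CPM of Tmem14c and 695 CPM of Hebp1, each between the values of S2 and S3 in CPM. Among non-globin UMIs, Slc25a39 (174) and Tmem14c (2116) were also between these stages, but Hebp1 was below both. In CPM the Slc25a39 interval (103 to 146) overlapped that of S3 (138 to 161). Slc25a38, at 117 CPM (97.3 to 140), did not differ from S3, at 115 CPM, beyond counting error. In non-globin CPM it was at 166, against 183 in S2 and 185 in S3. Abcb10, at 181 CPM (156 to 208), was below both stages in CPM. Among non-globin UMIs, at 255 (220 to 294), it was below S3 but overlapped S2 (270 to 294). Abcb6, at 47.1 CPM (34.8 to 62.2), and Flvcr1, at 2.88 CPM on 3 UMIs, did not differ from S3 beyond counting error.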

How the data were processed

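Cell Ranger counts of UMIs per gene and cell (build mm10) and counts of antibody tags per cell were used as deposited by the authors; whether tags were collapsed by UMI is not given in the sources used here. The study's limits on cells (300 to 5000 genes, mitochondrial share up to 9%) were applied, and doublets called by Scrublet in scanpy 1.11.5 (128 of 7863 cells, 1.63%) were removed, which left 7244 cells; the doublet caller expected 6%. Antibody counts were put on the centered log ratio scale, taken over cells for each antibody. Cells with summed counts of 5 lineage antibodies up to 95.8 (median plus 2 MADs on the log scale, 6424 cells) were gated by k-means into 3 Ter119 classes, and into 3 (Ter119-low) or 2 (Ter119-high) CD71 classes. Clusters came from Leiden clustering (leidenalg 0.10.2, resolution 0.8, 2000 variable genes, 16 components, 30 neighbours) and were named by at least 3 markers among the top 10 genes, a way of scoring chosen once the clusters had been looked at.

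The level of a gene is its summed UMIs per 1000000 summed UMIs of the population (CPM), with exact Poisson intervals, and exact conditional binomial intervals for ratios (scipy 1.17.1). Genes with at least 50 UMIs in both populations together were compared. The interval code was tested on simulated data. Named genes were the 7 members, at most 4 genes per list with the largest and smallest ratios past 2-fold, and the 3 genes most like each member. The members and lists were chosen with earlier results of these data known. Flvcr1 was matched by its RefSeq synonym, and promoter windows are those of RefSeq GRCm38.p6. No column of another sample was used, and transcripts of different genes were not compared by length. The total was 58606632 UMIs, with 2510 to 38047 per cell.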

Additional observations from a re-analysis of the deposited data

How the results depend on the processing

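The 7 ratios of each of the 6 comparisons were recomputed under 13 other settings. Of 546 recomputed ratios 355 stayed within the counting interval, 182 moved outside it in the same direction or without a called direction, and 9 turned direction. Per cell, Hebp1 and Tmem14c turned to 0.855 and 0.843 for S2 over S1, and Slc25a39 to 1.11 for S0-medium over S0-low (1.02 with cells thinned to 2000 UMIs). The median per-cell ratios of all genes tested were 0.551 and 1.30 in these steps. Slc25a38 for S3 over S2 was 1.01 without globins in the denominator. For S1 over S0-medium, Slc25a39 was 0.934 with a Gaussian mixture, 0.926 with antibodies scaled within each cell and 0.900 on log10 counts, and Flvcr1 was 1.01 with antibodies scaled within each cell. Among the counts of members past 2-fold, S0-medium over S0-low had 5 higher per cell, against 5.14% of genes. It had 0 higher with the non-erythroid clusters, the Cd34 cluster and the clusters led by Ccr2 or Dcn left out, against the share of genes given above. S1 over S0-medium had 0 higher per cell (0.635% of genes), with doublets kept, with thinned cells, on log10 counts and with the mean over cells. Abcb10 was there at 1.99, 1.999, 1.73, 1.60 and 1.82. S2 over S1 had 1 higher with the Gaussian mixture, with scaling within each cell and on log10 counts, and 0 lower with thinned cells, where Flvcr1 had a ratio of 0.214 but under 50 UMIs, and on log10 counts, where it was at 0.610. S3 over S2 had 1 higher with the Gaussian mixture, with scaling within each cell, on log10 counts, with border cells left out and without globins (5.0% of genes). Its lower counts were 2 per cell (56.6% of genes) and with scaling within each cell, and 0 without globins (2.71%) and with doublets kept. S4/S5 over S3 had 1 lower without globins (5.13% of genes). S3 over S0-low had 2 higher per cell (3.93%) and 6 without globins (10.1%), with the Gaussian mixture and on log10 counts. It had 5 with scaling within each cell, border cells left out or no lineage limit. The shares of genes under the other settings are not given here. The cause of these changes was not tested. No paired analysis was possible because there is 1 sample, and for the same reason no replicate could be left out. Depth limits Flvcr1 most, with 13 to 15 UMIs in the late stages.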
